A study of Mus musculus with 10 samples.

Results

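The C/EBP genes *Cebpa*, *Cebpb*, *Cebpd* and *Cebpg*, together with *Pparg*, were examined for accessible chromatin in the mouse epicardium and its derivatives. Peaks were kept when their summit lay inside one of the 5 genes or within 50 kb of it on mm10, and a region was called a promoter region when it lay within 1 kb of a transcription start site (TSS) of a protein-coding transcript. Over 9 ATAC-seq libraries this gave 71 regions, each reaching 250 bp to either side of a summit, out of 184764 in the whole data set, of which 12 were promoter regions and 59 were distal. *Cebpb* had 28 regions, *Cebpa* 17, *Pparg* 13, *Cebpg* 12 and *Cebpd* 6, and 5 regions lay in the windows of both *Cebpa* and *Cebpg*, whose starts are 62.7 kb apart on chromosome 7.

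C/EBP proteins are basic leucine zipper transcription factors that bind DNA as dimers. C/EBPβ and C/EBPδ are induced early in adipogenesis and in acute inflammatory responses, C/EBPα maintains the differentiated state of adipocytes, hepatocytes and myeloid cells, and C/EBPγ mostly acts as a dimer partner of other leucine zipper proteins. PPARγ is a nuclear receptor that binds DNA with a retinoid X receptor and directs adipocyte differentiation, a fate that some epicardial descendants take in the heart. C/EBP proteins are also known to occupy enhancers of epicardial genes such as *Raldh2* (*Aldh1a2*) and *Wt1*.

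In ATAC-seq, the Tn5 transposase cuts accessible DNA and leaves sequencing adapters there, so that open elements gather fragments. Here epicardial cells of 2 stages (E11.5 and E17.5) are compared with each other and with epicardium-derived cells (EPDCs) of E12.5 and E13.5, which have left the epithelium. All embryos were C57BL/6J and Rosa26tdTomato;Wt1CreERT2/+, and tamoxifen was given to the pregnant females by gavage at E9.5, so that tdTomato marks cells in which the *Wt1* promoter drove Cre at that time, and their progeny. Epicardial cells were sorted as CD31-tdTomato+PDPN+ and EPDCs as CD31-tdTomato+PDPN-, each sample being a pool of littermate hearts (6 at E11.5 and 4 at E17.5). Each of the 3 groups had 3 libraries. Those of EPDCs comprise 1 at E12.5 (E12.5 sample 1) and a pair at E13.5 (E13.5 sample 1 and E13.5 sample 2), of which the last joins both technical replicates of 1 biological sample in a single peak list. Cell population, stage and library set change together between EPDCs and epicardium and cannot be told apart.

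A region's level in a library is the rank percentile of its strongest summit among all summits of that library, by the −log10 p of the peak caller, and 0 stands for a region in which no summit was called. Differences are given in percentile points, with a call at an adjusted p under 0.05 by limma over the 130905 regions called in at least 3 libraries. A 0 means below the threshold of the peak caller, not closed chromatin. The lists held 94909 to 142743 summits, and the genome background was 3.24 to 4.1 fragments at E11.5, 2.07 to 3.61 at E17.5 and 4.19 to 10.9 in EPDCs, so E17.5 replicate 1 was the shallowest list and E13.5 sample 2 the deepest. The EPDC lists held 252 to 268 summits on sequences other than the autosomes and sex chromosomes, where the epicardial lists held 0. Across the genome, 378 regions lay at or above the 90th percentile in all EPDC libraries with no summit in any epicardial library, against 0 in the other direction. The promoter of *Atf4*, a gene that most cells transcribe, was among the first kind. Whether both sets of lists were filtered alike was not tested. None of the 378 was a region of the genes described here.

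Epicardial markers checked the labels. The median percentile over 11 epicardial and mesothelial promoters was 90.3 to 94 in E11.5 libraries, 89.5 to 92 in E17.5 libraries and 66 to 83.9 in EPDC libraries. Of 7 endothelial markers, 3 (*Kdr*, *Tek* and *Egfl7*) were called in every library, and *Pecam1*, the gene of the CD31 gate, had no promoter region. By limma *Kdr* was higher in EPDCs than at E11.5 (2.88 points, adjusted p = 0.0276) and than at E17.5 (3.45, adjusted p = 0.0108). *Egfl7* was lower at E17.5 than at E11.5 (-6.86, adjusted p = 0.00319), and EPDCs lay above E17.5 (6.58, adjusted p = 0.00349). *Tek* differed in no comparison. The medians over 8 mesenchymal markers were 76.8 to 80.4 at E11.5, 73.5 to 75.3 at E17.5 and 79.4 to 86.6 in EPDCs. Those over 8 cardiomyocyte markers were 14 to 31.8, 15.8 to 29.9 and 0 in the same order. Of the 6 cardiomyocyte markers tested, *Myl7* (33.2 points, adjusted p = 0.00182) was higher at E17.5 than at E11.5, as was *Myh7*, which met the filter only through E17.5, and *Tnnt2* (-24.8, adjusted p = 7.52e-05) and *Actn2* (-12.1, adjusted p = 0.000686) were lower. EPDCs had 0 higher and 3 lower against E11.5 and 2 higher and 2 lower against E17.5. Since C/EBP factors and PPARγ also serve macrophages and fat cells, markers of both were read. Of 10 macrophage and blood markers, 6 had no promoter region in any library, among them *Ptprc*, *Csf1r*, *Spi1* and *Adgre1*, and the median was 0 in each library. *Lyz2* was higher in EPDCs than at E11.5 (37.4 points, adjusted p = 0.00852). *Fcgr3* had summits in the 3 EPDC libraries alone (76.1, 75.5 and 80.5), and the globin gene *Hbb-bs* in the 3 E17.5 libraries alone (27.9, 58.2 and 31.4). Of 5 adipocyte markers *Plin1* was called in each library, *Fabp4* in E17.5 replicate 3 alone, and *Adipoq*, *Cidec* and *Lep* had no promoter region. The part of such cells in the results below was not tested.

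The sequences below are shown because the results turn on them. Promoters are RefSeq sequences of 300 bases around the start site on GRCm38.p6, the build of mm10, written 5′ to 3′ along the gene, and 4 of the 5 genes had an entry (that of *Cebpd* was not matched). Capitals mark letters that match any of the motifs C/EBP (TTGCNNAA), CRE (TGACGTCA), AP-1 (TGANTCA), TEAD (GGAATG) or DR1 (AGGTCANAGGTCA, a direct repeat bound by nuclear receptor pairs), searched on both strands, where N is any base. The *Cebpb*, *Cebpg* and first *Pparg* promoters changed between groups, and the last one is the *Pparg* promoter at which no summit was called.
*Cebpb* promoter, chr2:167688665-167688964, plus strand: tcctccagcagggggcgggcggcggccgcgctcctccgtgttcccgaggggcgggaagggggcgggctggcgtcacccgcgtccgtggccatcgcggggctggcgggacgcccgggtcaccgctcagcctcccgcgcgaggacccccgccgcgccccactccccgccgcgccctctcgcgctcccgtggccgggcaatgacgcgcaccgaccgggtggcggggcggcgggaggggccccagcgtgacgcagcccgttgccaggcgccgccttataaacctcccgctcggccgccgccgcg
*Cebpg* promoter, chr7:35056517-35056816, minus strand: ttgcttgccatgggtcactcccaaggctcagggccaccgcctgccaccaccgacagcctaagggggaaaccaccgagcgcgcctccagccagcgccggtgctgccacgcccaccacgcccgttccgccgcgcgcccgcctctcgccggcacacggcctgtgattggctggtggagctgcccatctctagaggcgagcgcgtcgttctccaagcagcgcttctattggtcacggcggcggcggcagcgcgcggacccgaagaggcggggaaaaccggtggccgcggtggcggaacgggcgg
*Pparg* first promoter, chr6:115360894-115361193, plus strand: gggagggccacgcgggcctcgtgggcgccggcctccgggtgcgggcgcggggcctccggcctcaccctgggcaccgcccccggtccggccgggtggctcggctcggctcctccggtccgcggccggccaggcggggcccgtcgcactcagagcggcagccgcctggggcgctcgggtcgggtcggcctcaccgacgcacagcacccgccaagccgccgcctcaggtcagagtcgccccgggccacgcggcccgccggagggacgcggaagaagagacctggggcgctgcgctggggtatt
*Pparg* downstream promoter, chr6:115421816-115422115, plus strand: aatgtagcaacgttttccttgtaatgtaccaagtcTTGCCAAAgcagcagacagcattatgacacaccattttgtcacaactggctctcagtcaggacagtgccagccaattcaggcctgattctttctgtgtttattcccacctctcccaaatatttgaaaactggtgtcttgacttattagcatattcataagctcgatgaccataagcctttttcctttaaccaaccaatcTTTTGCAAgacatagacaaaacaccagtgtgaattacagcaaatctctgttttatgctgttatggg

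The downstream *Pparg* promoter held 2 matches of the C/EBP motif, and the other 5 promoter sequences of these genes, among them those printed above, held no match of any of the 5 motifs. Of all 32851 RefSeq promoters of that length, 10.8% held the C/EBP motif, 7.81% the AP-1 motif, 14.7% the TEAD motif, 1.79% the CRE motif and 0.0396% the DR1 motif. Further regions are given next as the bases nearest their summit on the plus strand of mm10, named by their distance from the gene's first start site in the direction of transcription. All are distal but *Pparg* +22 kb, which lies within 1 kb of an inner start and counts as a promoter region. The distal ones were called in at least 1 comparison, of which *Cebpg* +21.2 kb met the filter of 3 libraries only through EPDCs, as did *Pparg* +22 kb.
*Cebpb* +9.1 kb, chr2:167697954-167698154: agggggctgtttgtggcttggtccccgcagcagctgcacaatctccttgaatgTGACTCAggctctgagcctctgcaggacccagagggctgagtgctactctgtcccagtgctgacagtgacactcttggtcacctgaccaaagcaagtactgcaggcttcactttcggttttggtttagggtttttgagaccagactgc
*Cebpb* +38.4 kb, chr2:167727223-167727423: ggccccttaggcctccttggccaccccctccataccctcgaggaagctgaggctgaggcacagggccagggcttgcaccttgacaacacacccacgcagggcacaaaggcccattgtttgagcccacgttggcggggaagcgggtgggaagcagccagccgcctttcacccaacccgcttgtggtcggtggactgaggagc
*Cebpb* +42.4 kb, chr2:167731222-167731422: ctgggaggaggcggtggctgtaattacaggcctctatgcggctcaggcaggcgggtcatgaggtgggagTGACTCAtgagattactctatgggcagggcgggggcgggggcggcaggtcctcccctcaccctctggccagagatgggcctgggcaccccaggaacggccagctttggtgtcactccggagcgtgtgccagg
*Cebpa* +22.5 kb, chr7:35141701-35141901: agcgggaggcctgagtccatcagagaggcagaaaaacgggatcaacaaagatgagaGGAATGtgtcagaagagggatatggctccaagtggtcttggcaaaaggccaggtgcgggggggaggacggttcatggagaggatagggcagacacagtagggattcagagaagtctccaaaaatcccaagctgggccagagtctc
*Cebpg* +21.2 kb, chr7:35035258-35035458: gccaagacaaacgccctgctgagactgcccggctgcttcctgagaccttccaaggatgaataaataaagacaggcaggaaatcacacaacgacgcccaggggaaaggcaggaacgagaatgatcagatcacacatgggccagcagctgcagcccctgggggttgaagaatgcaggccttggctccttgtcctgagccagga
*Pparg* +22 kb, chr6:115382854-115383054: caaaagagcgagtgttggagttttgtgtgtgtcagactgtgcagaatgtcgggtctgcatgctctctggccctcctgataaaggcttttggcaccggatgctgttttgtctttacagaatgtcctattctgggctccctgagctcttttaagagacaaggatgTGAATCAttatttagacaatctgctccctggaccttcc

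The AP-1 motif lies in *Cebpb* +9.1 kb and +42.4 kb and in *Pparg* +22 kb, the TEAD motif in *Cebpa* +22.5 kb, and no motif of the 5 in the windows of *Cebpb* +38.4 kb and *Cebpg* +21.2 kb. Over the whole regions, 17 of the 71 regions (23.9%) held the C/EBP motif, against 19.6% of all regions. The AP-1 motif was found in 17 of them as well (23.9%, against 22.8% of all regions), the TEAD motif in 15 (21.1%, against 33.1%), and the CRE and DR1 motifs in 0 (against 1.02% and 0.0752%). The C/EBP motif was found in 6 of the 13 *Pparg* regions, 5 of the 28 *Cebpb* regions, 3 of the 17 *Cebpa* regions, 2 of the 6 *Cebpd* regions and 1 of the 12 *Cebpg* regions, each time at a distal region. These are matches of letters and show no binding.

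The loci differed in how many accessible regions they hold. *Cebpb* had 27.6 regions per 100 kb of its window, at or above the density of 98.6% of 21911 protein-coding genes. *Cebpa* had 16.6 (77.3%) and *Cebpg* 10.9 (52.6%), while *Cebpd* had 5.78 (28.5%) and *Pparg* 5.67 (28%), and the median gene had 10.4. Of the 71 regions, 18 were called in all 9 libraries, 51 in at least 3, and 16 in a single library. In 14 regions a peak interval covered the region in more libraries than had their summit inside it, and differences there were also read by interval overlap. At the edge of the windows the outermost *Cebpb* region inside, at 48.8 kb, had a mean percentile of 22.7, and the nearest one outside, at 50.5 kb, had 10.5. For the other 4 genes the nearest region outside had a higher mean than the outermost one inside, and over the 5 genes these means ran from 5.48 to 67.7 inside and from 10.5 to 96.2 outside.

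The 9 libraries had 36 to 59 summits in these windows. Per 10000 summits of the library this was 4.02, 3.92 and 4.28 at E11.5, 4.21, 4.53 and 4.47 at E17.5, and 3.53, 4.09 and 3.26 in EPDCs. The means were 4.07 ± 0.184 at E11.5, 4.41 ± 0.169 at E17.5 and 3.63 ± 0.423 in EPDCs (SD, n = 3 each). E17.5 and E11.5 overlapped (exact permutation p = 0.2, two-sided), and so did EPDCs and E11.5 (exact permutation p = 0.3). All EPDC values lay below all E17.5 values (exact permutation p = 0.1, the smallest that 3 against 3 can give).

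**Figure D1:**
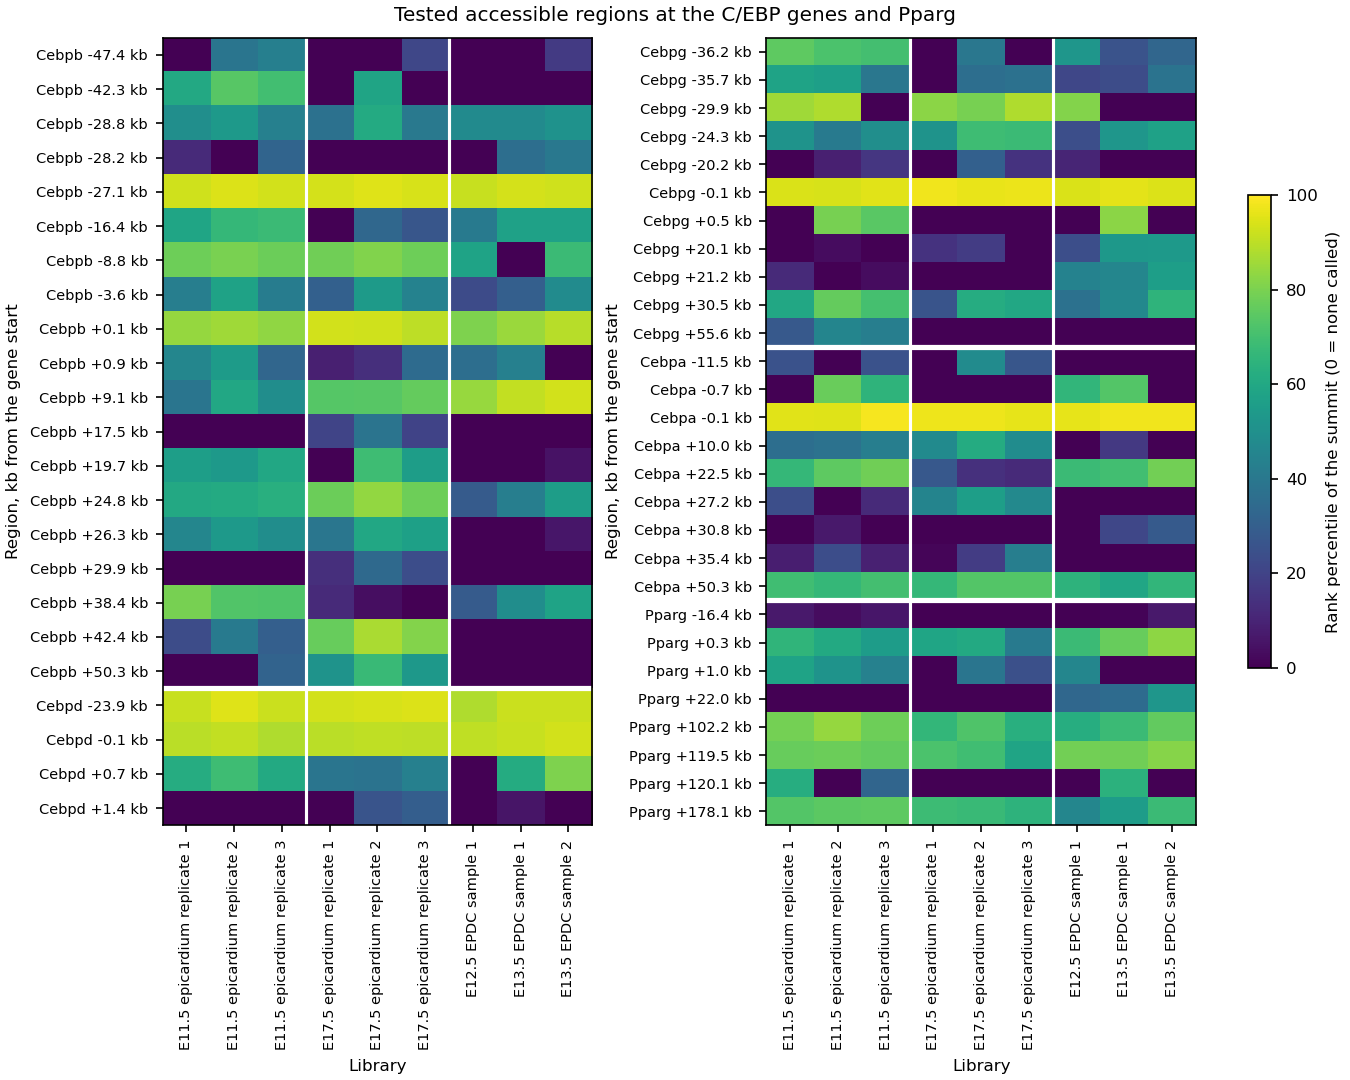
Rank percentile (colour, 0 to 100, 0 where no summit was called) of the 51 tested regions in each of the 9 libraries. Rows are regions by distance from the gene start in kb, columns are libraries, white lines part the groups and the genes, and the 5 regions shared by the *Cebpg* and *Cebpa* windows are drawn once. The row nearest the gene start is bright in all columns for *Cebpa*, *Cebpb*, *Cebpd* and *Cebpg*, while other promoter rows, such as *Pparg* +1.0 kb and +22 kb, are dim or at 0 in some columns.

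Between E11.5 and E17.5, 16 of the 51 tested regions changed, 8 higher and 8 lower at E17.5. Among all tested regions 11.2% were called higher and 30.5% lower, and the members' median difference was -2.34 points. Most of the higher calls, 6 of 8, were at *Cebpb*, and the others were *Cebpa* +27.2 kb and the *Cebpg* promoter. With equal numbers of top peaks from each library the split was 12 higher and 6 lower, and on a log2 depth-normalized score it was 14 higher and 8 lower. Over all tested regions the median difference was -5.51 points, and 0 with equal numbers, so levels at E17.5 are to be read against a small overall drop.

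EPDCs against E11.5 gave 14 calls, 4 higher and 10 lower in EPDCs (background 12.7% higher and 28% lower). With equal numbers of top peaks the split was 6 higher and 8 lower. EPDCs against E17.5 gave 19 calls, 9 higher and 10 lower (background 24.3% higher and 20% lower), and 8 higher and 17 lower on the log2 score. Both comparisons use the same EPDC libraries, and each epicardial group also enters 2 comparisons. Of the calls, 6 (E17.5 against E11.5), 4 (EPDCs against E11.5) and 6 (EPDCs against E17.5) were in 8 regions that met the filter of 3 libraries only through the group where they are highest. Such a region had to differ, so it is described below by its values, with no p. The splits also rested on single libraries. The 8 lower calls at E17.5 against E11.5 became 4 without E11.5 replicate 2 or 3 and 5 without E17.5 replicate 3. The 10 lower calls of EPDCs against E11.5 became 5 without E11.5 replicate 3 and 6 without replicate 1 or 2. Against E17.5, the 9 higher calls became 5 without E13.5 sample 1 and in a fit of the 2 groups alone, and the 10 lower ones 6 without E17.5 replicate 2. None of the 4 tested *Cebpd* regions was called in any comparison (limma, adjusted p over all regions).

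Of the 5 genes, *Cebpa*, *Cebpb*, *Cebpd* and *Cebpg* had a promoter region in the upper part of every list, and that of *Pparg* lay lower in each library. Promoter regions were called in either direction in 22.4% (E17.5 against E11.5), 21.8% (EPDCs against E11.5) and 29.9% (EPDCs against E17.5) of 14181 protein-coding genes. The *Cebpa* promoter region, 136 bp upstream of the start in an intron of the antisense transcript Gm45091, lay at 95.6, 95.2 and 98.5 at E11.5, 97.4, 97.5 and 96.4 at E17.5 and 96.4, 97.9 and 97.8 in EPDCs. Its groups overlapped and no comparison was called (adjusted p = 0.625, 0.449 and 0.861 by limma).

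The *Cebpb* promoter region, centred 125 bp inside the single exon of the gene and within an intron of *Tmem189*, was higher at E17.5 than in either of the other groups. It lay at 84.1, 85.7 and 83.3 at E11.5, 93.2, 92.7 and 90.04 at E17.5 and 80.9, 85.1 and 89.4 in EPDCs. All E17.5 values lay above all others, and E11.5 and EPDCs overlapped. The E17.5 mean was 7.62 points above E11.5 (SE 2.04, adjusted p = 0.0157), and EPDCs were lower than E17.5 (-6.83 points, SE 2.04, adjusted p = 0.0236). Near the top of a list the percentile is compressed, so fragments were also read: on log2 fragments over genome background, less the median of the regions called in all libraries, the *Cebpb* promoter was at 0.81, 0.76 and 0.60 at E11.5, 2.10, 1.80 and 1.80 at E17.5 and 0.69, 0.89 and 1.01 in EPDCs. On that scale E17.5 exceeded E11.5 by 1.18 (exact permutation p = 0.1, the smallest possible). The same scale also put E17.5 above E11.5 without overlap at the *Cebpa* promoter (by 0.47) and the *Cebpd* promoter (by 0.52), neither of which was called on percentiles (exact permutation p = 0.1 each). EPDCs also lay above E11.5 without overlap on it at *Cebpa* (by 0.537), *Cebpd* (0.549), *Cebpg* (0.425) and *Pparg* (0.951), with an exact permutation p of 0.1 each. None of these was called on percentiles in that comparison. The fragment scale was read for the promoters of these genes alone, and how many other promoters rise on it was not tested. At the *Cebpb* promoter the percentile call of E17.5 against E11.5 was lost without E11.5 replicate 3 (7.08, adjusted p = 0.0533) or E17.5 replicate 1 (6.99, adjusted p = 0.0557). When peaks were ranked by fold enrichment the difference from E11.5 was 2.48 (adjusted p = 0.672) and EPDCs lay 12.45 points above E17.5 (adjusted p = 0.0284). On that ranking EPDCs thus lay still further above E11.5. The percentile call of EPDCs against E17.5 was lost without E17.5 replicate 1 or 2, E12.5 sample 1 or E13.5 sample 1 (range over left-out libraries -8.98 to -4.69), and in a fit of the 2 groups alone.

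The *Cebpg* promoter region, 57 bp upstream of the start, followed the same order with a smaller size. Its values were 94.3, 93.9 and 95.4 at E11.5, 97.7, 96.9 and 96.9 at E17.5 and 94.4, 96.0 and 94.7 in EPDCs. It was 2.6 points higher at E17.5 than at E11.5 (SE 0.66, adjusted p = 0.0122), or 0.89 on the log2 fragment scale, a call lost when peaks were ranked by fold enrichment (2.14, adjusted p = 0.451). EPDCs were lower than E17.5 (-2.1 points, SE 0.66, adjusted p = 0.029), a call that was lost without any 1 of 5 libraries (all 3 of E17.5, E12.5 sample 1 and E13.5 sample 2, range over all left-out libraries -2.59 to -1.8) and with a replicate block (-2.04, adjusted p = 0.0571). The same call was lost on the log2 depth-normalized score (adjusted p = 0.073) and with regions called in at least 1 library (adjusted p = 0.0537), and its sign turned under fold ranking (1.17, adjusted p = 0.69). The *Cebpd* promoter region, 61 bp upstream of the start, lay at 89.7, 90.7 and 88.1 at E11.5, 89.7, 90.4 and 90.1 at E17.5 and 90.5, 91.7 and 93.1 in EPDCs. No comparison of it was called by limma, but with equal numbers of top peaks EPDCs were 4.95 points above E11.5 (adjusted p = 0.0115). On the log2 depth-normalized score both E17.5 (0.362, adjusted p = 0.0461) and EPDCs (0.504, adjusted p = 0.0111) were called above E11.5.

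The *Pparg* promoter region, in the 5′ UTR 271 bp past the first start, was highest in EPDCs. It lay at 65.3, 60.9 and 55.2 at E11.5, 58.6, 60.9 and 41.3 at E17.5 and 68.0, 76.8 and 82.9 in EPDCs. The EPDC values lay above all epicardial values, while the epicardial stages overlapped. EPDCs exceeded E17.5 by 22.3 points (SE 6.37, adjusted p = 0.0192), a call that was lost without E17.5 replicate 3 (16.1, adjusted p = 0.054), E13.5 sample 1 (21.8, adjusted p = 0.0586) or E13.5 sample 2 (18.8, adjusted p = 0.0685). It was also lost under fold ranking (11.4, adjusted p = 0.13) and in a fit of the 2 groups alone (adjusted p = 0.0587). The difference from E11.5 was 15.4 points (SE 6.37, adjusted p = 0.084), which became a call with equal numbers of top peaks (27.7, adjusted p = 0.0204) and on the log2 depth-normalized score (0.88, adjusted p = 0.0288). *Pparg* +1.0 kb, in an intron 369 bp from the nearest coding start, lay at 58.0, 51.3 and 43.8 at E11.5, 0, 38.7 and 24.4 at E17.5 and 45.9, 0 and 0 in EPDCs. Its E17.5 values lay below its E11.5 values, and no comparison was called (adjusted p = 0.117, 0.0692 and 0.799 by limma). A summit lay inside it in 6 libraries and a peak interval covered it in all 9. By its own summits EPDCs differed from E11.5 by -35.7 points. Read by interval overlap it took the level of the promoter region 271 bp past the first start, with the same 15.4 points.

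A second *Pparg* region had summits in EPDCs alone. *Pparg* +22 kb lies in an intron, 745 bp from the start of an inner coding transcript, and was called in no epicardial library and at 33.3, 35.0 and 52.7 in the EPDC libraries. Its EPDC mean was 40.3. It entered the fit only through the EPDC libraries, so its difference follows from the filter and no p is given. The nearest summit in any epicardial library was 20.7 kb away on one side and 80.1 kb on the other. Whether the epicardial lists cover this stretch as the EPDC lists do was not tested. At the downstream start of *Pparg*, whose sequence is printed above, no region was called within 1 kb in any library. This promoter, that of the *Pparg2* transcript, is the one known for its use in fat cells.

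**Figure D2:**
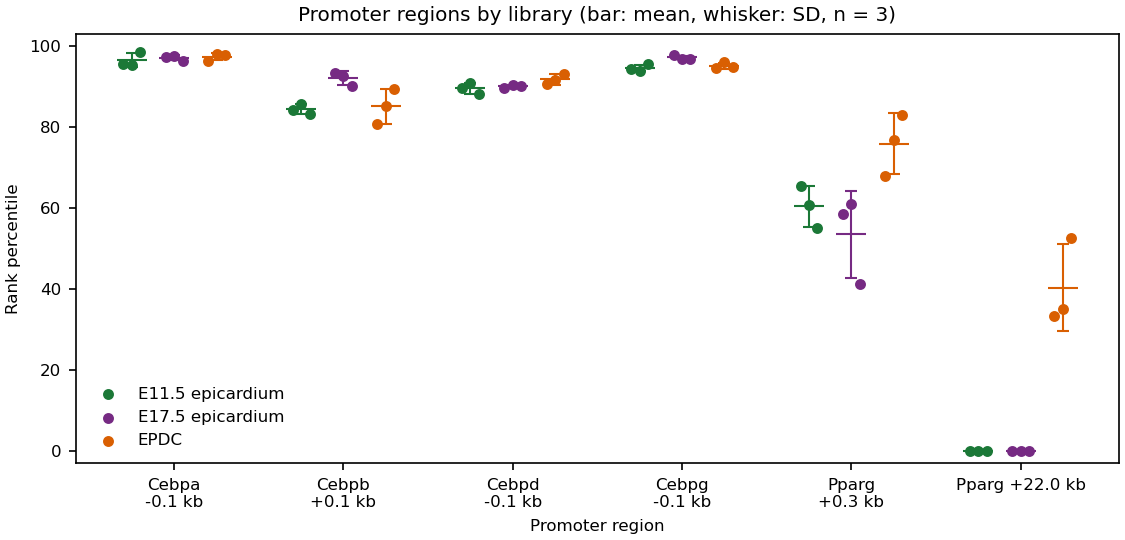
Rank percentile (y axis, 0 to 100) of the promoter region of each gene and of *Pparg* +22 kb (x axis). Points are the 3 libraries of each group, horizontal bars their mean and whiskers the SD. *Cebpb* and *Cebpg* are highest at E17.5, and the *Pparg* regions are highest in EPDCs.

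Of the 28 *Cebpb* regions 19 were tested, and 9 changed between E11.5 and E17.5, 7 between E11.5 and EPDCs and 10 between E17.5 and EPDCs. These are 47.4, 36.8 and 52.6%, against 41.8, 40.6 and 44.3% of all tested regions in the same order. Downstream of the start, 6 of 11 tested regions were called higher at E17.5 and 1 lower, and upstream 0 of 8 higher and 2 lower, where the shares of all tested regions were 11.2% higher and 30.5% lower. Of the 6, 3 (the regions 17500 bp, 29.9 kb and 50.3 kb downstream) met the filter only through E17.5, and 1 of the upstream pair (-42.3 kb) only through E11.5. Of the *Cebpb* regions, 9 lie inside the long non-coding RNA gene A530013C23Rik, which neighbours *Cebpb*, and those upstream lie mostly in introns of *Tmem189*.

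The widest difference among the tested regions was at *Cebpb* +42.4 kb, an intergenic region. It lay at 23.4, 40.9 and 30.2 at E11.5, against 76.7, 87.2 and 81.6 at E17.5, and no summit was called in any EPDC library. The groups did not overlap. It rose by 50.4 points (SE 6.16, adjusted p = 0.000257) from E11.5 to E17.5, and EPDCs were lower than E17.5 (-81.9 points, adjusted p = 1.57e-05). Both calls held in all 18 alternatives, and the lower level of EPDCs against E11.5 (-31.5 points, adjusted p = 0.00362) in 17 of 18, being lost with equal numbers of top peaks.

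Its neighbour *Cebpb* +38.4 kb, in an exon of A530013C23Rik, went the other way. It lay at 79.5, 72.9 and 72.3 at E11.5, 11.8, 3.6 and 0 at E17.5 and 28.8, 49.2 and 58.2 in EPDCs. E11.5 was above EPDCs and EPDCs above E17.5, with no overlap between groups. It fell by 69.7 points (SE 8.13, adjusted p = 0.000198) from E11.5 to E17.5 in all 18 alternatives, and EPDCs lay 40.2 points above E17.5 (adjusted p = 0.00343) and under E11.5 (-29.5 points, adjusted p = 0.0185, lost without E11.5 replicate 1 and under fold ranking). *Cebpb* +50.3 kb, the outermost region downstream, was called at 0, 0 and 32.0 at E11.5, 51.3, 67.8 and 53.2 at E17.5 and not in EPDCs. All E17.5 values lay above all others, and it met the filter only through E17.5.

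*Cebpb* +9.1 kb was the only tested *Cebpb* region called higher in EPDCs than at E11.5 (it was singled out after its values were seen). It lay at 39.0, 59.9 and 49.2 at E11.5, 73.7, 73.9 and 76.6 at E17.5 and 84.5, 90.7 and 93.2 in EPDCs, without overlap. It rose by 25.4 points (SE 5, adjusted p = 0.00344) from E11.5 to E17.5, a call lost only when peaks were ranked by fold enrichment, and EPDCs exceeded E11.5 by 40.1 points (adjusted p = 0.000335) in all 18 alternatives. The step from E17.5 to EPDCs was 14.8 points (adjusted p = 0.0398) and was lost without any of the 3 E17.5 libraries or either E13.5 sample (range over left-out libraries 12.9 to 17.3), and with regions called in at least 1 library.

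A pair of downstream regions was stronger in epicardium than in EPDCs. *Cebpb* +26.3 kb lay at 45.7, 53.7 and 49.0 at E11.5, against 39.4, 60.1 and 56.9 at E17.5, which overlap, and at 0, 0 and 6.0 in EPDCs. It fell by 47.5 points (SE 6.61, adjusted p = 0.000605) in EPDCs against E11.5, in all 18 alternatives. *Cebpb* +19.7 kb lay at 55.9, 54.0 and 59.9 at E11.5, 0, 68.8 and 55.6 at E17.5 and 0, 0 and 4.8 in EPDCs. EPDCs were lower than E11.5 (-55 points, adjusted p = 0.0183, lost without E11.5 replicate 3 or E13.5 sample 1), and E17.5, where 1 library had no summit, was not called against EPDCs (adjusted p = 0.0604). Both regions hold the AP-1 motif near their summit, a motif found in 22.8% of all regions over their full width. *Cebpb* +26.3 kb also holds the C/EBP motif near its summit.

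Further *Cebpb* regions are given next, of which all but -42.3 kb were chosen after their values were seen. The regions 17500 bp downstream of *Cebpb* (20.4, 38.4 and 20.1) and +29.9 kb (13.53, 34.1 and 23.6) were called in the 3 E17.5 libraries and in no other. *Cebpb* +24.8 kb lay at 60.4, 61.2 and 63.2 at E11.5, 77.7, 83.8 and 78.0 at E17.5 and 28.8, 42.7 and 55.6 in EPDCs, and EPDCs were lower than E17.5 (-37.5 points, adjusted p = 0.00145, lost under fold ranking). Upstream, *Cebpb* -42.3 kb lay at 60.4, 74.1 and 69.6 at E11.5, at 0, 58.6 and 0 at E17.5 and at 0 in EPDCs. All E11.5 values lay above all others, and it met the filter only through E11.5. *Cebpb* -16.4 kb lay at 58.9, 66.7 and 68.2 at E11.5, 0, 33.6 and 26.8 at E17.5 and 41.1, 57.1 and 57.1 in EPDCs, a fall from E11.5 to E17.5 (-44.5 points, adjusted p = 0.00496). Its higher level in EPDCs than at E17.5 (by 31.7 points, adjusted p = 0.0231) held in 13 of 18 alternatives, being lost under fold ranking, in a fit of the 2 groups alone and without E17.5 replicate 1 or either E13.5 sample (range over left-out libraries 21.6 to 38.4).

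The strongest distal region of the window, *Cebpb* -27.1 kb, was steady. Its values ran from 91.4 to 95.1 in the 9 libraries with no call. It lies 212 bp from the start of *Tmem189* and so is the promoter of that neighbour. *Cebpb* -8.8 kb, in an intron of *Tmem189*, was likewise even in the epicardium, at 77.8, 80.1 and 77.6 at E11.5, against 78.5, 81.1 and 78.1 at E17.5, but was called at 57.9, 0 and 68.2 in EPDCs, where 1 library had no summit.

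**Figure D3:**
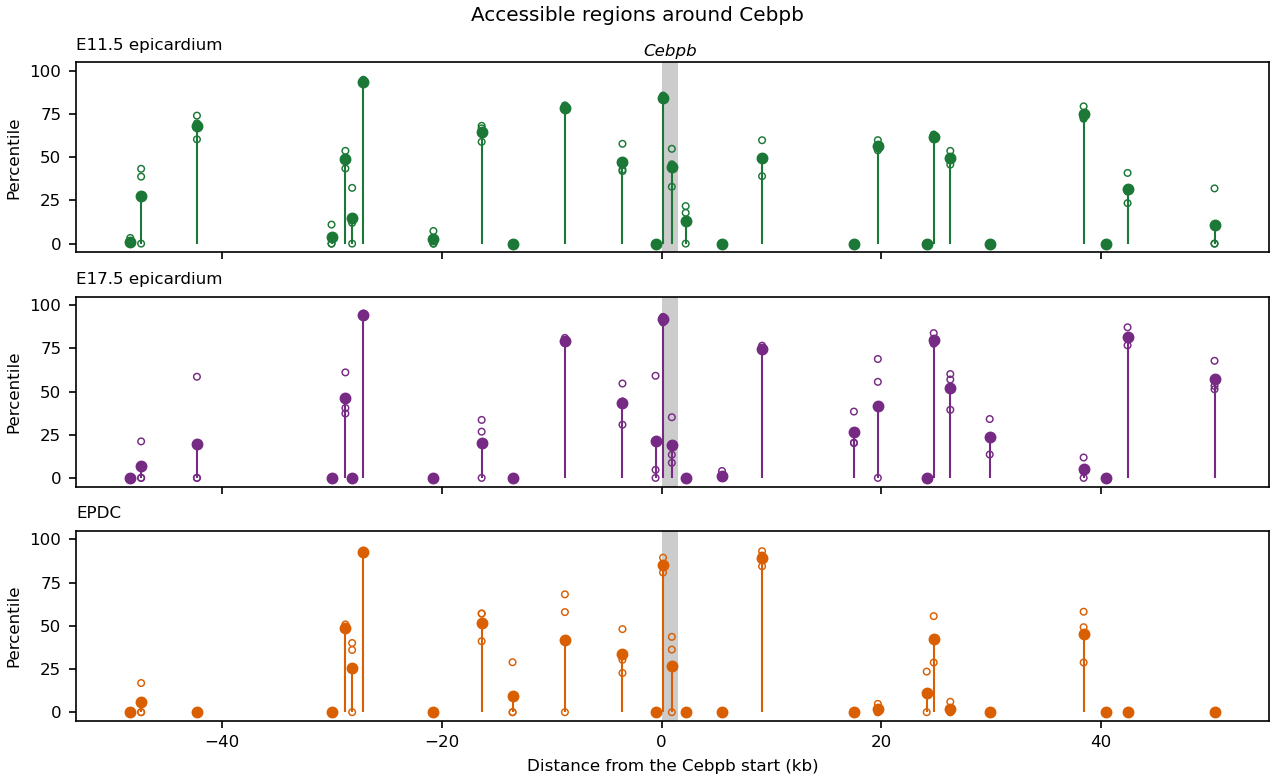
Rank percentile (y axis, 0 to 100) of the 28 regions around *Cebpb* by distance from its start in kb (x axis), with 1 panel per group. Filled points are means of 3 libraries, open points single libraries, and the grey bar is the gene. The regions at +42.4 and +50.3 kb are tallest at E17.5, that at +38.4 kb is lowest there, and that at +9.1 kb is tallest in EPDCs.

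*Cebpa* and *Cebpg* share the intergenic stretch between them. Of 14 tested *Cebpa* regions, 3 changed between E11.5 and E17.5, 2 between E11.5 and EPDCs and 3 between E17.5 and EPDCs, and of 11 tested *Cebpg* regions 3, 4 and 3 did so. For *Cebpa* this is 21.4, 14.3 and 21.4%, and for *Cebpg* 27.3, 36.4 and 27.3%, all below the shares of all tested regions given above. *Cebpa* +22.5 kb, an intergenic region, was high at E11.5 and in EPDCs and low at E17.5. It lay at 66.5, 75.2 and 78.3 at E11.5, 27.5, 13.9 and 12.1 at E17.5 and 68.0, 69.8 and 78.7 in EPDCs. It fell by 55.5 points (SE 6.31, adjusted p = 0.000172) from E11.5 to E17.5, and EPDCs lay 54.4 points above E17.5 (SE 6.31, adjusted p = 0.000151), both in all 18 alternatives. EPDCs and E11.5 differed by -1.17 points (SE 6.31).

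The next region, *Cebpa* +27.2 kb, had the opposite course. It lay at 23.9, 0 and 11.9 at E11.5, 45.3, 56.2 and 47.2 at E17.5 and at 0 in EPDCs. All E17.5 values lay above all others, and it met the filter only through E17.5. *Cebpa* +10.04 kb lay at 36.1, 37.9 and 42.7 at E11.5, 47.9, 61.5 and 48.5 at E17.5 and 0, 16.5 and 0 in EPDCs. EPDCs were lower than E17.5 (-47.2 points, adjusted p = 0.000444) and than E11.5 (-33.4 points, adjusted p = 0.00385). A peak interval covered it in all libraries, and by interval overlap the difference from E11.5 was -13.2 (adjusted p = 0.244) and that from E17.5 -26.96 (adjusted p = 0.028).

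Between the genes, *Cebpa* -26.6 kb (also *Cebpg* -36.2 kb) was strongest at E11.5. It lay at 75.0, 71.5 and 70.00 at E11.5, 0, 39.8 and 0 at E17.5 and 52.6, 25.5 and 33.1 in EPDCs. It fell by 58.9 points (SE 11.6, adjusted p = 0.00348) at E17.5 in all 18 alternatives. EPDCs were lower than E11.5 (-35.1 points, adjusted p = 0.0397), a call that held in 9 of 18 alternatives and was lost without any of the 3 E11.5 libraries or either E13.5 sample (range over left-out libraries -42.8 to -29.3), and with the replicate block (-37.5, adjusted p = 0.0573). *Cebpa* -32.8 kb (also *Cebpg* -29.9 kb) was covered by a peak in all 9 libraries, but had its summit elsewhere in 3 of them, and by interval overlap the differences were -5.0 points (E17.5 against E11.5), -4.44 (EPDCs against E11.5) and 0.56 (EPDCs against E17.5). *Cebpa* +50.3 kb, the distal *Cebpa* region of highest mean, was at 69.5, 66.5 and 70.1 at E11.5, 66.7, 73.2 and 73.2 at E17.5 and 64.7, 59.1 and 65.9 in EPDCs, with no call. It lies nearer to *Slc7a10*, a neutral amino acid transporter, than to *Cebpa*.

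On the other side of *Cebpg*, within introns of *Pepd*, which encodes the dipeptidase prolidase, 2 regions were higher in EPDCs. *Cebpg* +21.2 kb lay at 11.7, 0 and 3.5 at E11.5, 0 in all E17.5 libraries and 44.4, 45.9 and 56.2 in EPDCs. All EPDC values lay above all others, and it met the filter only through EPDCs. *Cebpg* +20.1 kb lay at 0, 3.3 and 0 at E11.5, 14.7, 17.6 and 0 at E17.5 and 23.9, 53.2 and 53.9 in EPDCs, 42.5 points above E11.5 (adjusted p = 0.00389) and 32.9 above E17.5 (adjusted p = 0.0116, lost without E17.5 replicate 3 at 27.5, on the log2 depth-normalized score and in a fit of the 2 groups alone). Farther out, *Cebpg* +55.6 kb was called at 27.8, 45.5 and 42.7 in the 3 E11.5 libraries and in no other, and as it entered the fit only through them, no p is given.

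**Figure D4:**
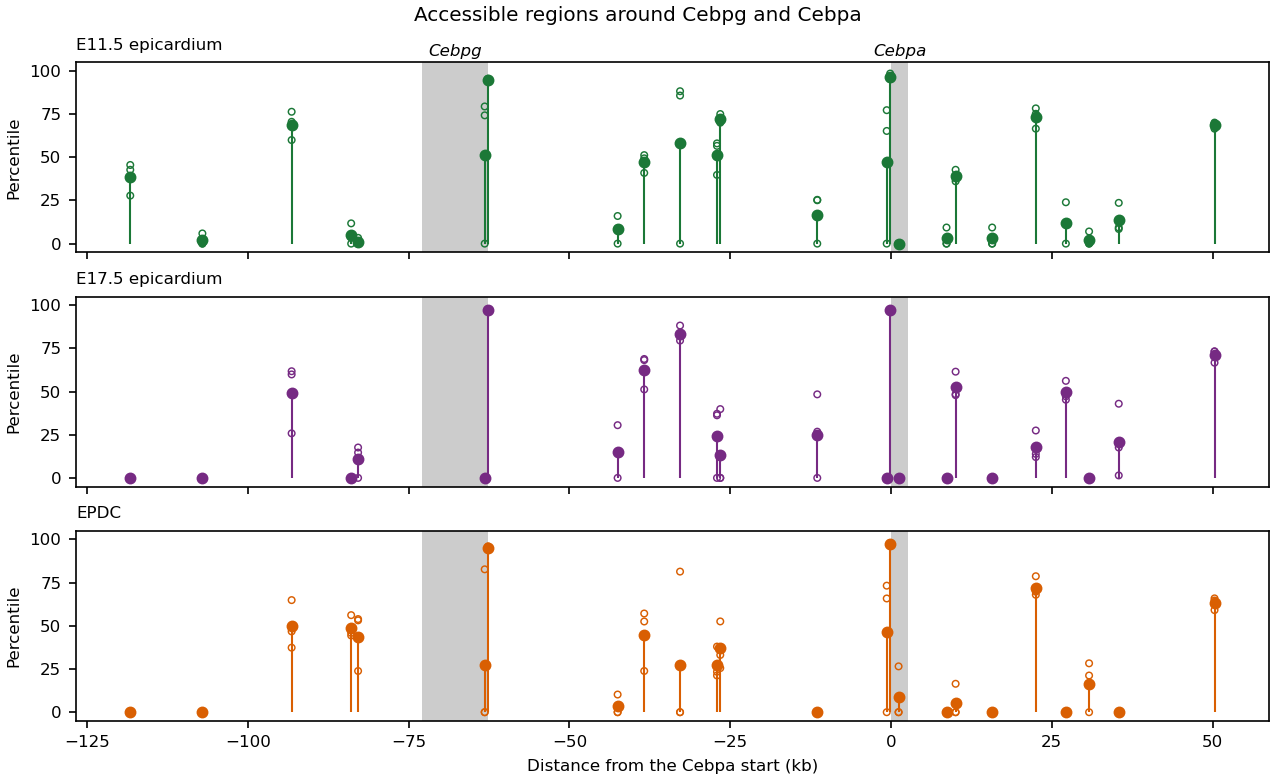
Rank percentile (y axis, 0 to 100) of the 24 regions around *Cebpg* and *Cebpa* by distance from the *Cebpa* start in kb (x axis), with 1 panel per group. Filled points are means of 3 libraries, open points single libraries, and grey bars are the genes. To the right of *Cebpa*, the region at +22.5 kb is short at E17.5 and that at +27.2 kb is tallest there, and to the left of *Cebpg* a close pair is tall in EPDCs.

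*Cebpd* stood in a sparse window with few changes. Apart from its promoter, its strongest region was *Cebpd* -23.9 kb, which lies 6 bp from the start of *Mzt2* and ran from 88 to 94.9 with no call. *Cebpd* +0.7 kb, in the coding exon, lay at 62.1, 69.1 and 60.7 at E11.5, 39.0, 38.2 and 43.6 at E17.5 and 0, 61.5 and 80.6 in EPDCs. Its E17.5 values lay below its E11.5 values, with an adjusted p of 0.316. A peak interval covered it in all libraries, and read by interval overlap it took the level of the promoter, with a difference of 0.54 points.

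Of 8 tested *Pparg* regions, 0 were higher and 2 lower at E17.5 than at E11.5, 1 was higher and 1 lower in EPDCs than at E11.5, and 3 were higher and 0 lower in EPDCs than at E17.5. In total 25, 25 and 37.5% were called, against 41.8, 40.6 and 44.3% of all tested regions in the same order. *Pparg* +22 kb, which met the filter only through EPDCs, is 1 of the higher ones in both EPDC comparisons. Inside the gene 2 distal regions were open in all libraries. *Pparg* +119.5 kb, in an intron, lay at 76.6, 77.4 and 76.1 at E11.5, 71.7, 69.3 and 58.5 at E17.5 and 78.9, 78.4 and 81.7 in EPDCs. It was lowest at E17.5, by 13.1 points against EPDCs (SE 3.39, adjusted p = 0.012), and the sign turned when peaks were ranked by fold enrichment (-3.08, adjusted p = 0.488). That call was also lost in a fit of the 2 groups alone. Its fall from E11.5 to E17.5 (-10.2, adjusted p = 0.0397) held in 7 of 18 alternatives and was lost without any of the 3 E11.5 libraries, E17.5 replicate 3 (-6.17) or E13.5 sample 1, and it changed sign under ranking by fold enrichment (2.48). *Pparg* +102.2 kb covers a coding exon and lay at 79.0, 84.0 and 77.7 at E11.5, 66.3, 72.6 and 63.2 at E17.5 and 62.3, 68.0 and 76.0 in EPDCs. Its fall to E17.5 (-12.9, adjusted p = 0.0326) held in 10 of 18 alternatives and was lost without any of the 3 E11.5 libraries or E17.5 replicates 1 or 3 (range over left-out libraries -15.5 to -10.8).

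In the stretch of more than 80 kb between *Pparg* +22 kb and *Pparg* +102.2 kb no region was called in any library.

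**Figure D5:**
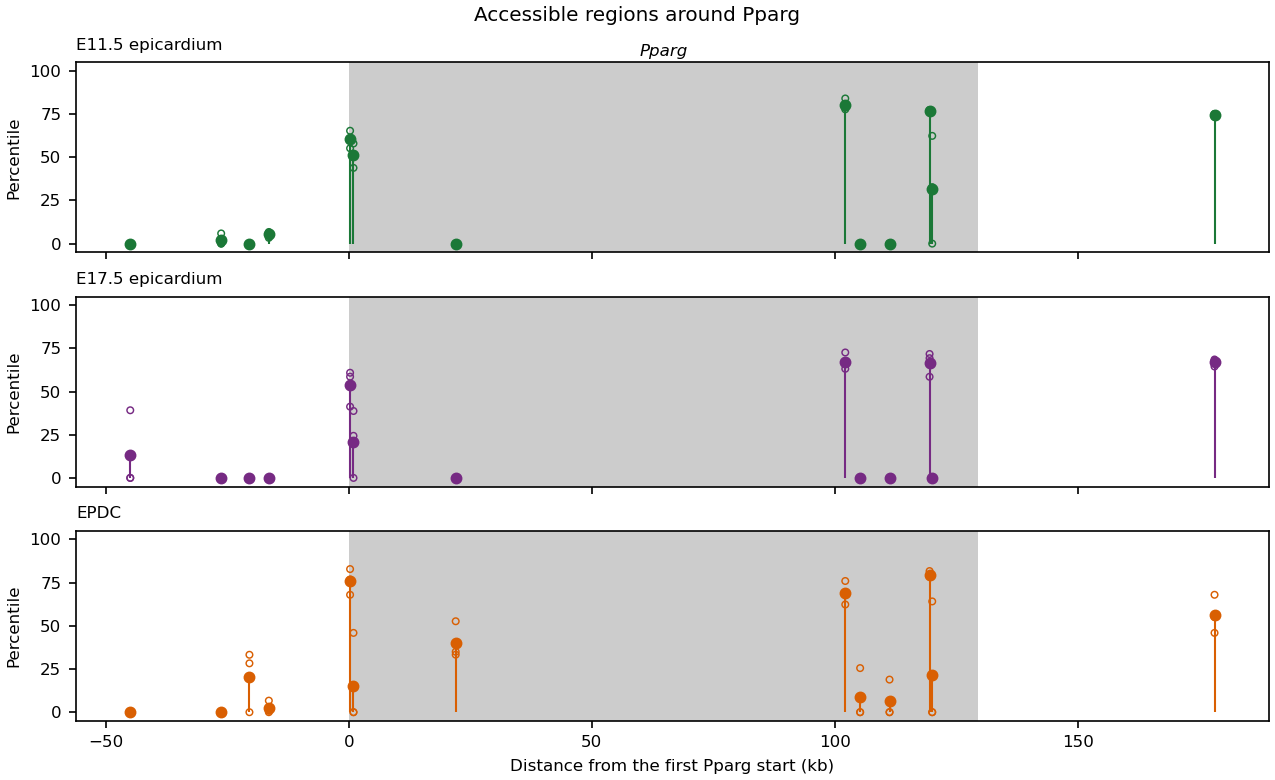
Rank percentile (y axis, 0 to 100) of the 13 regions around *Pparg* by distance from its first start in kb (x axis), with 1 panel per group. Filled points are means of 3 libraries, open points single libraries, and the grey bar is the gene. The region at +22 kb is above 0 in EPDCs alone, and those at +102.2 and +119.5 kb are tall in all groups.

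Promoters of genes that work with these factors were read from lists, and are given as mean ± SD (n = 3). Their counts stand against the 22.4, 21.8 and 29.9% of all promoters called in the 3 comparisons. Among 13 C/EBP and leucine zipper partners, 12 had a promoter region and 11 were tested. Between E11.5 and E17.5, 0 were higher and 2 lower: *Atf5*, a stress-response factor, from 97.9 ± 0.954 to 94.98 ± 1.44 (adjusted p = 0.0172), and *Tef*, a PAR-type clock-controlled factor, from 99.3 ± 0.0534 to 98.2 ± 0.318 (adjusted p = 0.0337). The count of EPDCs against E11.5 was 1 higher and 0 lower, the 1 being *Atf4*, which had summits in EPDC libraries alone and so had to be called. Against E17.5 it was 2 higher and 0 lower, *Atf4* and *Atf5*. *Cebpe*, the granulocyte member of the family, had no promoter region in any library.

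Of 13 PPAR partners and coregulators, all tested, 2 were higher and 3 lower at E17.5 than at E11.5. *Rxrg*, a retinoid X receptor, went from 98.1 ± 0.931 to 90.5 ± 2.56 (adjusted p = 0.000854), and *Nrip1*, a corepressor of nuclear receptors, from 91.6 ± 1.11 to 83.8 ± 2.95 (adjusted p = 0.00558). *Ppara* rose from 94.3 ± 1.46 to 96.9 ± 0.126 (adjusted p = 0.0211). In EPDCs *Rxrg* was at 98.2 ± 0.41 and *Nrip1* at 92.2 ± 2.36, both above E17.5 (adjusted p = 0.000653 and 0.00343), in a count of 3 higher and 2 lower. EPDCs against E11.5 gave 0 higher and 1 lower.

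Regulators upstream of the C/EBP genes in fat and inflammation gave 3 higher and 3 lower of 18 tested at E17.5 against E11.5. *Prdm16*, a factor of brown fat, fell from 75.8 ± 0.0954 to 57.8 ± 3.35 (adjusted p = 0.00127) and was at 82.6 ± 4.13 in EPDCs. *Gata3* was at 38.7 ± 12.9, 62.3 ± 7.91 and 81.0 ± 3.5 in that order, and *Srebf1*, which drives lipid synthesis, rose from 92.4 ± 1.47 to 97.2 ± 0.952 (adjusted p = 0.0024). EPDCs against E11.5 gave 2 higher and 0 lower, and EPDCs against E17.5 gave 1 higher and 2 lower.

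Genes that PPARγ and C/EBP activate in fat were tested for 14 of 19, with 3 higher and 2 lower at E17.5, 3 higher and 2 lower in EPDCs against E11.5 and 3 higher and 3 lower in EPDCs against E17.5. *Lpl*, lipoprotein lipase, lay at 85.3 ± 1.98 at E11.5, 57.9 ± 6.85 at E17.5 (adjusted p = 0.000448) and 81.3 ± 4.26 in EPDCs. *Angptl4*, an inhibitor of that enzyme, was also lower at E17.5 than at E11.5 (-25.1 points, adjusted p = 0.00723). The 3 higher ones were the lipid droplet genes *Plin2* (10.1 points, adjusted p = 0.016), *Plin4* (21.3, adjusted p = 0.0328) and *Cidea* (23.7, adjusted p = 0.00978). *Cd36*, a fatty acid receptor, lay at 87.7 ± 4.76, 77.2 ± 6.54 and 47.1 ± 12.4, and was lower in EPDCs than at E11.5 (adjusted p = 0.00103). *Pck1*, which serves glyceroneogenesis, lay at 15.2 ± 14.1, 0 and 54.0 ± 0.738, and met the filter only through EPDCs, where it is highest. Of the pair whose epicardial enhancers C/EBP proteins are known to bind, *Wt1* fell from 97.0 ± 0.811 to 91.4 ± 0.842 (adjusted p = 0.00228), and *Aldh1a2* was not called in any comparison. Its values were 0, 92.5 and 94 at E11.5, 96, 97.3 and 96.7 at E17.5 and 85.9, 86.3 and 91.6 in EPDCs, with no summit in E11.5 replicate 1, and the SE of each difference was 21.2.

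Over the 9 libraries, the promoters most like each member by Pearson correlation of their percentiles had r of 0.896 to 0.971. For *Cebpb* they were *Ddx60*, *Dram1* and *Cfap126*, for *Cebpg* *Nupr1*, *Cds1* and *Aoc3*, and for *Pparg* *Hlx*, *Serpina3g* and *Igf1*. *Ddx60*, the promoter most like *Cebpb*, had means of 70.6 at E11.5, 86.1 at E17.5 and 71.8 in EPDCs, and *Hlx*, the one most like *Pparg*, had 81.3, 76 and 89.5. For *Cebpa* they were *Ttc32*, *Rgs16* and *Rhob*, and for *Cebpd* *Rab5if*, *Reep3* and *Slc1a6*. The best of many promoters over 9 points that share depth and group is high by selection, so these are given as descriptions.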

How the data were processed

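ATAC-seq was measured in 10 samples, which gave 9 peak lists, 3 for each group. The authors aligned the reads to mm10 in the nf-core atacseq pipeline and called narrow peaks with MACS2 2.2.9.1. In the deposited lists each summit has a fold enrichment over background (a ratio), a −log10 p and a −log10 q. The 2 technical replicates of E13.5 sample 2 share 1 list. Read totals were not used here.

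Summits were merged into regions of 250 bp to either side, and each region took the rank percentile of its strongest summit by −log10 p. Regions called in at least 3 libraries were tested with limma 3.58.1 (R 4.3.3) on group means over all 9 libraries, with Benjamini-Hochberg adjustment, and single values with two-sided exact permutation tests, whose smallest p for 3 against 3 is 0.1. Fragments at a summit were recovered from the deposited values within a tolerance of 0.02, and give the depth. The fit was tested on simulated data. Genes came from GENCODE M21 and promoter sequences from RefSeq. Samples are pools of littermates, and p-values measure the spread between these samples. For EPDCs this spread joins libraries of E12.5 and E13.5.

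The members and lists were chosen with earlier results of these data known. Named were the region at each start site, the distal region of highest mean, and up to 3 called distal regions of largest difference per comparison for each gene. Alternatives were log2 score, fold ranking, equal numbers of top peaks, −log10 q of at least 5, interval overlap, no filter, autosomes, 2-group fits, a replicate block, other windows and leaving out each library. Log2 fragments over background, the strongest summit within 1 kb of a start site, and the count of calls that differ by interval overlap were chosen after seeing the data. One distal region of the *Pparg* window is counted but not reported here.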

Additional observations from a re-analysis of the deposited data

How the results depend on the processing

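Of the 27 differences tested at named regions, 433 values under the alternatives kept direction and side of the threshold, 45 lost the call and 2 changed sign. Of the 27, 9 (at *Cebpa* +27.2 kb, *Cebpb* -42.3 kb and +50.3 kb, *Cebpg* +21.2 kb and +55.6 kb) are of regions that met the filter only through the group where they are highest, so their calls say nothing of stability. Of the 15 promoter differences, 251 values kept both, 32 lost a call, 7 gained one and 10 changed sign. Of the 32, 10 came from the log2 fragments and the strongest summit near a start site, whose exact permutation p cannot fall below 0.1 and so says nothing of stability. Regions called numbered 16 (E17.5 against E11.5), 14 (EPDCs against E11.5) and 19 (EPDCs against E17.5). Windows of 20 kb gave 8, 6 and 12 of 27 tested, and windows of 100 kb gave 33, 32 and 40 of 94, since they hold other numbers of regions. Leaving out 1 library gave 11 to 19, 9 to 14 and 13 to 21. The 9 was without E11.5 replicate 3. The summit rate at E17.5 exceeded that at E11.5 by 0.255 to 0.434 per 10000 summits with 1 library left out.

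With the replicate block the counts were 18, 13 and 18. Same-numbered E11.5 and E17.5 libraries had correlations of their deviations of 0.0299, 0.0557 and -0.0326, so the numbers were not taken as pairs.

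Ranking by fold enrichment changed the sign at the promoters of *Cebpa* (EPDCs against E17.5, -1.97), *Cebpb* (EPDCs against E17.5, 12.45), *Cebpd* (E17.5 against E11.5, -0.154), *Cebpg* (EPDCs against E17.5, 1.17) and *Pparg* (E17.5 against E11.5, 2.90), and at *Pparg* +119.5 kb (2.48 for E17.5 against E11.5 and -3.08 for EPDCs against E17.5). Equal numbers of top peaks did so at the *Pparg* promoter (E17.5 against E11.5, 2.31). Leaving out 1 library did so at the *Cebpa* promoter (EPDCs against E17.5, -0.0787 without E17.5 replicate 3 and -0.0008 without E13.5 sample 1, highest 0.788), the *Cebpb* promoter (EPDCs against E11.5, -1.36 without E13.5 sample 2, highest 2.93) and the *Cebpd* promoter (E17.5 against E11.5, -0.17 without E11.5 replicate 3, highest 1.15). The cause was not tested. Of these, only the *Cebpb* and *Cebpg* promoters and *Pparg* +119.5 kb had been called in the comparison named. Depth limits weak regions, where a 0 means no summit passed the threshold of the peak caller.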

Other observations

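The 20 regions called in fewer than 3 libraries were not tested. Of these, 16 had a summit in 1 library and 4 in 2, with percentiles from 0.310 to 59.1 where called. In 8 of them the summits came from E11.5 libraries alone, in 4 from E17.5 libraries alone and in 8 from EPDC libraries alone. A peak interval covered 2 of them in all 9 libraries, so their summits lay in a neighbouring region.

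Regions near the starts of other genes in these windows varied in level. *Cebpb* -27.1 kb is the promoter of *Tmem189* and *Cebpd* -23.9 kb that of *Mzt2*, and neither was called in any comparison. *Cebpb* -28.2 kb, 754 bp from a start of the coding gene *Gm20431*, lay at 12, 0 and 32.3 at E11.5, 0 in all E17.5 libraries and 0, 36 and 40.05 in EPDCs, also with no call.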
